A study of Mus musculus with 4 samples.

Results

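For an account of cellular and systemic iron handling, the 10 genes Hamp, Tfrc, Tfr2, Fth1, Ftl1, Slc40a1, Slc11a2, Hfe, Ireb2 and Fbxl5 were picked by symbol from 54838 genes measured by RNA sequencing in Hepa1-6, a mouse hepatocellular carcinoma line. All 10 were found, each on a single row. Their levels were compared between 2 libraries of cells wild type for Acvr2a (NC) and 2 libraries of cells labelled Acvr2a knockout (KO). Nothing else differs between the groups in the labels, which name no treatment or time point. The design text calls the knockout cells subclones, without saying whether the KO libraries come from separate subclones or separate cultures. The p-values therefore measure only the spread between these libraries.

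Hepcidin, the product of Hamp, is a peptide hormone made by hepatocytes that binds the iron exporter ferroportin (Slc40a1) and causes its breakdown. Hamp transcription is driven by BMP ligands through type I receptors and the type II receptors BMPR2 and ACVR2A, the product of the gene targeted here, with HFE and TFR2 feeding in the level of transferrin-bound iron. Inside the cell, the iron-regulatory proteins IRP1 (Aco1) and IRP2 (Ireb2) bind hairpins called iron-responsive elements when iron is low. Bound to a 5′ UTR they block translation, and bound to a 3′ UTR they protect the mRNA from decay. FBXL5 marks IRP2 for degradation when iron is plentiful.

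Library totals lay between 11597923 and 13910582 counts. Acvr2a RNA (chromosome 2, 48814109 to 48903269, with exons shared with Orc4 on the other strand) averaged 7.46 ± 0.48 CPM (TMM-scaled counts per 1000000; SD, n = 2) in NC, and in KO the mean was 6.44 ± 1.05 CPM. Its log2 fold change was -0.21 (SE 0.20, adjusted p = 0.433), so RNA level did not separate the groups and the names follow the labels. Of 10 hepatocyte markers 8 reached 1 TPM (transcripts per 1000000, a level per length) in at least 1 library, while Ttr and Serpina1a stayed at or under 0.33 TPM. The summed hepatocyte list was at 868.5 to 910.7 TPM in NC and 845.4 to 924.6 TPM in KO. Of the 8 markers at 1 TPM, only Alb was higher in both KO libraries, at 624.2 and 712.6 TPM against 497.7 and 472.6 TPM in NC. Both KO libraries were lower for 5, Afp, Hnf4a, Foxa2, Fgb and Apob, and 2 overlapped. Hnf4a was at 95.1 and 91.6 TPM in NC, against 54.5 and 47.5 TPM in KO. Leukocyte markers summed to 46.0 and 47.6 TPM in NC, against 69.8 and 78.2 TPM in KO, nearly all of it Cd68 and Cd14, which moved apart. Cd68 was at 24.0 and 27.7 TPM in NC, against 55.5 and 67.6 TPM in KO, and Cd14 at 21.7 and 19.4 TPM, against 13.1 and 10.1 TPM, with Cd3e at 0 and Ptprc at or under 0.04 TPM. Erythroid markers summed to 114.3 to 130.8 TPM over both groups, nearly all from Hba-a1 and Hba-a2, with Epb42 at 0. Endothelial markers summed to at most 0.48 TPM. Stellate and fibroblast markers summed to 1033 and 1095 TPM in NC and 1233 and 1239 TPM in KO, nearly all Dcn, with Col3a1 at 0. The part of these lists in the results below was not tested.

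Iron-responsive elements are shown first because they divide the members by the sequence of their UTRs. The search, on the transcript strand of GENCODE M21 protein-coding transcripts (GRCm38), looked in UTRs for an unpaired C, 5 bases of any kind, the loop CAGTGN and 5 more bases that pair with the first 5, G with T allowed. It matched 4 of the 10 members, Tfrc in the 3′ UTR and Fth1, Ftl1 and Slc40a1 in the 5′ UTR, with 7 elements in all. Each is printed 5′ to 3′ with 6 bases on either side, and capitals mark the loop.
Tfrc element 1, 3′ UTR, chr16:32631219-32631247, plus strand: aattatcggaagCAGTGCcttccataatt
Tfrc element 2, 3′ UTR, chr16:32631598-32631626, plus strand: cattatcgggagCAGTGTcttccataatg
Tfrc element 3, 3′ UTR, chr16:32631663-32631691, plus strand: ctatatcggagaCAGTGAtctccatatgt
Tfrc element 4, 3′ UTR, chr16:32631710-32631738, plus strand: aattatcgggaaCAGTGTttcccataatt
Fth1, 5′ UTR, chr19:9982732-9982760, plus strand: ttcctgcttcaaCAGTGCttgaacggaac
Ftl1, 5′ UTR, chr7:45459779-45459807, minus strand: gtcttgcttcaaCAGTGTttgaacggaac
Slc40a1, 5′ UTR, chr1:45925465-45925493, minus strand: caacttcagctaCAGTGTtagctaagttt

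Among 21741 protein-coding genes with a UTR, 160 (0.736%) held such a match, 31 in a 5′ UTR and 129 in a 3′ UTR. Tfrc, with 4, was the only gene with 3 or more. Both ferritin chains have the same letters beside the loop, cttcaa before it, of which the first is the unpaired C, and ttgaa after it. A looser search, added after the strict one, allowed 1 unpaired base on the 3′ side of the stem and matched 283 genes (1.30%). It added 1 member, Slc11a2, whose match lies only in the longest annotated transcript, of 4415 bases.
Slc11a2, 3′ UTR, chr15:100395152-100395181, minus strand: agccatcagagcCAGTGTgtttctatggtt
Hamp, Tfr2, Hfe, Ireb2 and Fbxl5 had no match to these letters in either search. A match describes the sequence and does not show that the element is in use.

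Over the members, 9 of 10 passed the filter on low counts and 1, Hamp, did not. Of the 9 tested, 3 (33.3%) had an adjusted p under 0.05 by the quasi-likelihood test of edgeR, against 37.9% of all 12510 genes tested. Tfr2 and Slc40a1 were higher in KO, where 19.7% of all genes were called higher, and Fth1 was lower, where 18.2% were. The share of members called was thus close to that of the transcriptome. CPM did not overlap between the groups for 7 of the 9, 4 with KO above and 3 with KO below, and for 69.4% of all genes tested. The median log2 fold change of the 9 was 0.16, and that of all genes tested was -0.0037.

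**Figure D1:**
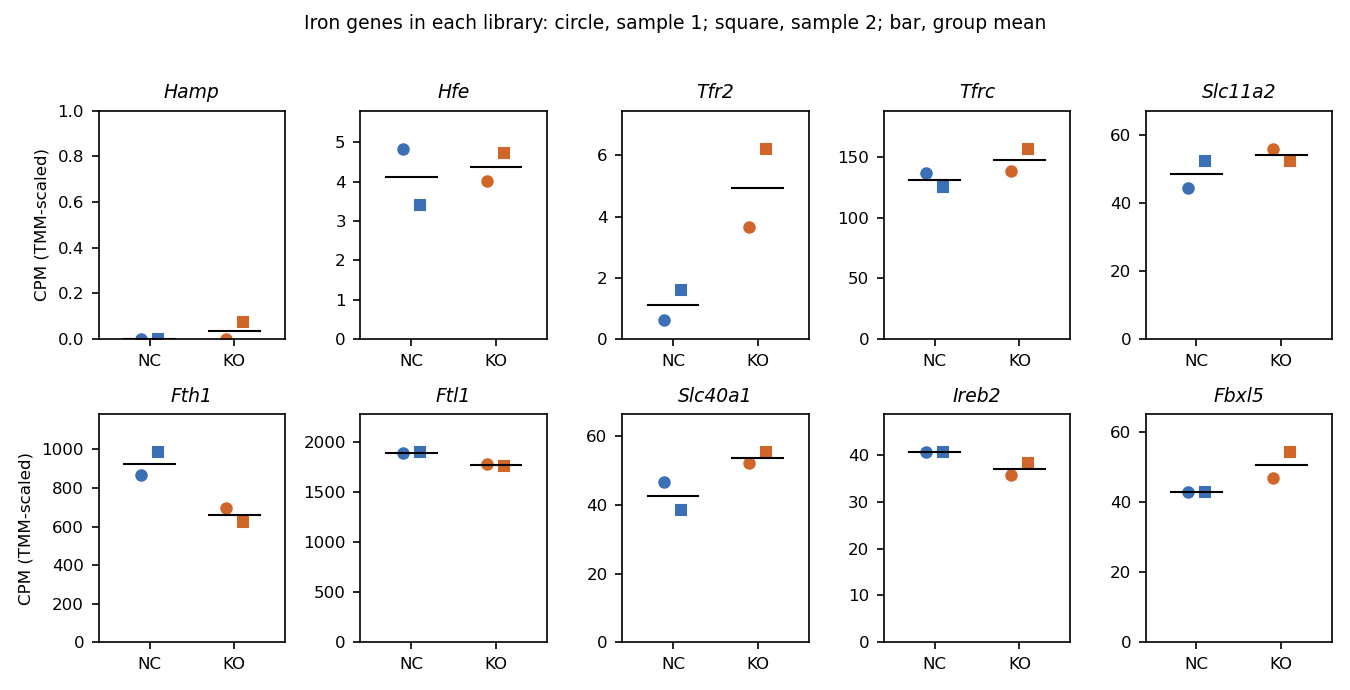
TMM-scaled CPM (linear axis from 0) of the 10 iron genes in each library; circles are sample 1, squares sample 2 and bars the group means. Fth1 lies between 624.5 and 697.9 CPM in KO, below both NC libraries, Tfr2 and Slc40a1 lie above them, and Hamp is at or near 0 throughout.

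Hepcidin RNA was all but absent. Hamp (chromosome 7, 30942368 to 30944032) had 0 counts in NC 1, NC 2 and KO 1 and 1 count in KO 2. A count of 0 allows up to 3 counts, which is 0.264 CPM in NC 1, 0.217 in NC 2 and 0.228 in KO 1, so no fold change was computed. The second mouse hepcidin gene, Hamp2, had 0 counts in each library. Any effect of the genotype on hepcidin was not detectable at this depth.

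Hfe and Tfr2 encode the hepatocyte proteins that couple transferrin saturation to hepcidin. Hfe (chromosome 13, 23702034 to 23710854), an MHC class I-like protein that binds transferrin receptor 1, was at 4.84 and 3.39 CPM in NC and 4.02 and 4.74 CPM in KO. The groups overlapped, and the log2 fold change was 0.10 (SE 0.27, 95% interval -0.45 to 0.66, adjusted p = 0.798), with a direction that turned to -0.14 without NC 2 and to -0.023 without KO 2. Tfr2 (chromosome 5, 137569840 to 137587481), transferrin receptor 2, was counted 7 and 22 times in NC and 48 and 84 times in KO, or 0.616 and 1.59 CPM against 3.64 and 6.22 CPM. Both KO libraries were above both NC libraries, though the libraries within each group also differed widely. Tfr2 rose by 2.11 on the log2 scale, or 4.31-fold (SE 0.40, 95% interval 1.29 to 2.92, adjusted p = 7.21e-05). The log2 value was 2.98 without NC 2 and 1.62 without NC 1, and the call was lost on the log2(TPM + 0.1) scale (adjusted p = 0.0633) and without a filter on TPM (adjusted p = 0.191), a fit that called 0 of all genes.

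The genes that act on Hamp from outside the cell and through SMADs were taken from a list of 18, of which 14 were tested, with 3 higher, 2 lower and 9 not past 0.05 (median log2 fold change -0.027). The 35.7% called is close to the 37.9% of all genes. The coreceptor hemojuvelin (Hfe2) had 0 counts in each library. The ligand gene Bmp6 was counted once in each library but KO 1, where it had 0 counts, and Bmp2 had 3 and 1 counts in NC, with 0 and 1 in KO. Bmpr2, the other type II receptor for this pathway, averaged 49.3 ± 4.08 CPM in NC, and in KO the mean was 53.2 ± 12.2 CPM (SD, n = 2). The log2 difference was 0.11 (SE 0.12, adjusted p = 0.503), and it became 0.32, past the threshold, without KO 1 and -0.15 without KO 2. The inhibitory SMADs moved in opposite directions, Smad7 rising by 0.56 (SE 0.095, adjusted p = 4.04e-05) and Smad6 falling, at -0.79 on the log2 scale (SE 0.14, adjusted p = 6.10e-05). Fgl1, a secreted hepatocyte protein that lowers hepcidin, rose by 1.14 from a mean of 6.26 ± 0.64 CPM to 13.86 ± 1.13 CPM (SE 0.18, adjusted p = 1.24e-05). Acvr1, the type I receptor ALK2, fell from 24.0 ± 1.82 to 18.2 ± 0.90 CPM, a log2 fold change of -0.40 (adjusted p = 0.0188), a call lost without NC 2 (-0.31), without KO 1 (-0.35), with DESeq2 and in the TPM fits. Tmprss6, the protease that cleaves hemojuvelin, was counted only 6 and 3 times in NC, against 17 and 11 times in KO. Its adjusted p of 0.0471 (log2 fold change 1.52) was lost in 8 of the 11 alternatives that gave a value, among them each omission of a library (0.98 to 2.22) and the fit with a replicate block (adjusted p = 0.0605).

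Tfrc and Slc11a2 encode proteins of iron entry, and neither passed the test with all libraries. Tfrc (chromosome 16, 32608920 to 32632794), transferrin receptor 1, was at 136.7 and 125.7 CPM in NC and 138.9 and 156.9 CPM in KO. The KO libraries were above the NC libraries by a narrow margin, and KO 1 lay closer to NC 1 than to KO 2. The log2 fold change was 0.17 (SE 0.095, 95% interval -0.021 to 0.37, adjusted p = 0.154), and it passed only without KO 1 (0.26, adjusted p = 0.0450). Slc11a2 (chromosome 15, 100387898 to 100425072), the endosomal and plasma membrane iron transporter DMT1, was at 44.6 and 52.6 CPM in NC and 56.1 and 52.5 CPM in KO. The groups overlapped, and the log2 fold change was 0.16 (SE 0.10, 95% interval -0.056 to 0.37, adjusted p = 0.244). Its exons meet those of Gm5475 on the other strand, which had at most 2 counts in a library.

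Ferritin stores iron in a shell of heavy chains (Fth1), which oxidise iron, and light chains (Ftl1), which help it to mineralise. Fth1 (chromosome 19, 9980598 to 9985098) was at 865.9 and 985.8 CPM in NC and 697.9 and 624.5 CPM in KO. Both KO libraries were below both NC libraries. Fth1 fell, with a log2 fold change of -0.49 or 0.714-fold (SE 0.098, 95% interval -0.69 to -0.29, adjusted p = 0.000299). Each omission of a library kept the call, with values from -0.58 to -0.39, while the TPM fits gave -0.42 and did not (adjusted p = 0.0753, 0.0790 and, without a filter, 0.237). Ftl1 (chromosome 7, 45457944 to 45459884) was at 1884 and 1897 CPM in NC and 1783 and 1760 CPM in KO. The groups did not overlap, yet the change did not pass, at -0.094 on the log2 scale (SE 0.094, 95% interval -0.29 to 0.099, adjusted p = 0.459). Ftl1 exons overlap Gm22133 on the same strand and Gm10252 on the other strand. Gm10252 had 379.0 to 422.6 counts a library. The copy Ftl1-ps1 was assigned 168.7 to 233.7 counts against at least 21424.5 for Ftl1, so the split among these genes is uncertain. The annotated Fth1 pseudogenes took at most 1 count.

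The ratio of the chains followed Fth1. In TPM, Fth1 over Ftl1 was 0.533 and 0.603 in NC, against 0.452 and 0.409 in KO, a fold of 0.759. Ferritin took 0.270% and 0.287% of all counts in NC, against 0.253% and 0.239% in KO. Neither quantity overlapped between the groups, and the exact two-sided permutation test gave p = 0.333 for each, the smallest that 2 against 2 allows. Tfrc TPM per 1000 Fth1 TPM, a quantity chosen after the values were seen, was 24.5 and 17.5 in NC, against 28.7 and 35.4 in KO (exact permutation p = 0.333).

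**Figure D2:**
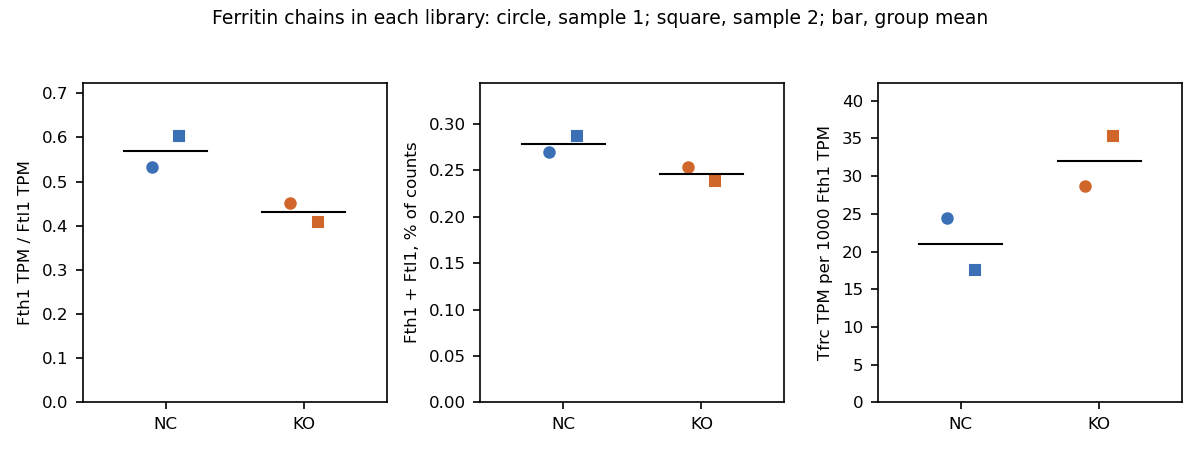
Ratio of Fth1 to Ftl1 TPM, the share of all counts taken by both chains, and Tfrc TPM per 1000 Fth1 TPM in each library (linear axes from 0; circles are sample 1, squares sample 2, bars the group means). The Fth1 to Ftl1 ratio lies between 0.409 and 0.452 in KO and between 0.533 and 0.603 in NC.

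Slc40a1 (chromosome 1, 45908068 to 45926523) encodes ferroportin, the exporter that hepcidin removes from the membrane. It was at 46.5 and 38.4 CPM in NC and 52.1 and 55.2 CPM in KO. Both KO libraries were above both NC libraries, and the NC libraries were further apart than the KO libraries. Slc40a1 rose by 0.34 on the log2 scale, or 1.27-fold (SE 0.11, 95% interval 0.12 to 0.56, adjusted p = 0.0128). The call rested on NC 2 and KO 2: it was lost without NC 2 (0.21, adjusted p = 0.250) and without KO 2 (0.30, adjusted p = 0.0600), and also with DESeq2 (adjusted p = 0.0925) and in the TPM fits (adjusted p from 0.0764 to 0.158). Of the ferroxidases that work beside ferroportin, Cp (ceruloplasmin) rose by 0.60 from a mean of 20.9 ± 0.41 CPM to 31.7 ± 1.40 CPM (SE 0.12, adjusted p = 0.000315), a call lost in the TPM fits, and its exons overlap Hps3 on the other strand. Heph and Hephl1 had 0 counts in each library.

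None of the 3 genes that sense iron inside the cell passed the test with all libraries. Ireb2 (chromosome 9, 54863789 to 54912530), IRP2, was at 40.5 CPM in both NC libraries and at 35.6 and 38.3 CPM in KO. The log2 fold change was -0.13 (SE 0.11, 95% interval -0.35 to 0.084, adjusted p = 0.338). Aco1, IRP1 and cytosolic aconitase, averaged 133.9 ± 3.31 CPM in NC, and in KO the mean was 114.4 ± 4.72 CPM (SD, n = 2). The log2 difference was -0.23 (SE 0.092, adjusted p = 0.0517), and it passed in the robust fit and without KO 1. Fbxl5 (chromosome 5, 43744615 to 43821638), the F-box protein that targets IRP2, was at 43.0 CPM in both NC libraries and at 46.8 and 54.3 CPM in KO. Its log2 fold change was 0.23 (SE 0.10, 95% interval 0.020 to 0.45, adjusted p = 0.0770) and passed without KO 1 (0.34, adjusted p = 0.0215). On the log2(TPM + 1) scale it was 0.62 (adjusted p = 0.0407). Fbxl5 exons overlap those of Bst1 on the other strand, which had 986 and 1101 counts in NC against 1397 and 1576 in KO, more than Fbxl5 itself. Bst1 rose by 0.42 (SE 0.095, adjusted p = 0.000894), and the counting is not stated to use strand, so reads from the stretch where their exons overlap cannot be assigned to one or the other.

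**Figure D3:**
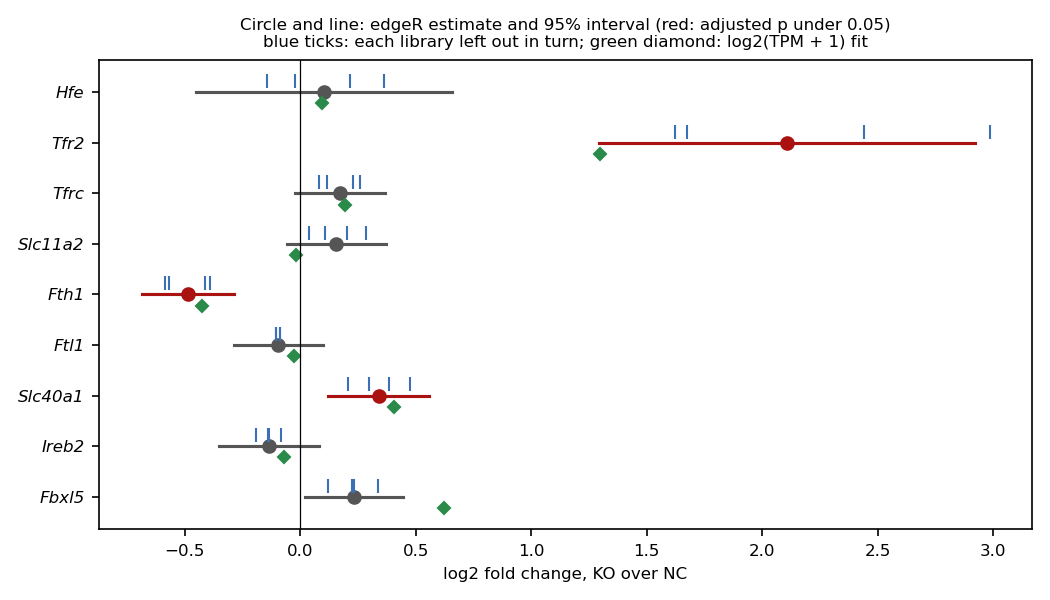
log2 fold change of the 9 tested iron genes, KO over NC, with the edgeR estimate (circle, red where the adjusted p is under 0.05) and its 95% interval (line), the values with each library left out (blue ticks) and the log2(TPM + 1) fit (green diamonds). Tfr2 has the widest spread, from 1.62 to 2.98 with a library left out, and the diamond of Fbxl5 lies at 0.62 against 0.23 for its circle.

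The gap between the scales for Fbxl5 went with the deposited transcript length, which weights a gene's annotated transcripts by their estimated share in each library. Fbxl5 had 2184 and 1744 bases in NC, against 1465 and 1702 in KO, so that each KO length was below each NC length. The margin was narrow: NC 2 lay closer to KO 2 than to NC 1. Ftl1 was also shorter in KO, by a few bases, at 963.06 and 961.5 against 966.37 and 966.36 in NC. The share of all genes with lengths apart was not computed. Among the 12 listed transcripts of Fbxl5, those of 374 and 397 bases were the only ones shorter than 2144 bases. Slc11a2 moved the other way, from 2476 and 2467 bases in NC to 2930 and 2815 in KO. In NC its TPM was 21.2 and 26.4, against 24.2 and 22.6 in KO, and its log2 fold change on the log2(TPM + 1) scale was -0.016. The lengths of Tfr2, between 1019 and 1660 bases, lay far below its 5 long coding transcripts of 2839 to 3072 bases and overlapped between the groups, as did those of Tfrc. The shorter Tfr2 transcripts, of 377 to 854 bases, are annotated as retained introns, except a coding one of 454 bases. The gene count of Tfr2 does not tell these forms apart. These lengths are estimates with no error of their own, and no test was made.

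**Figure D4:**
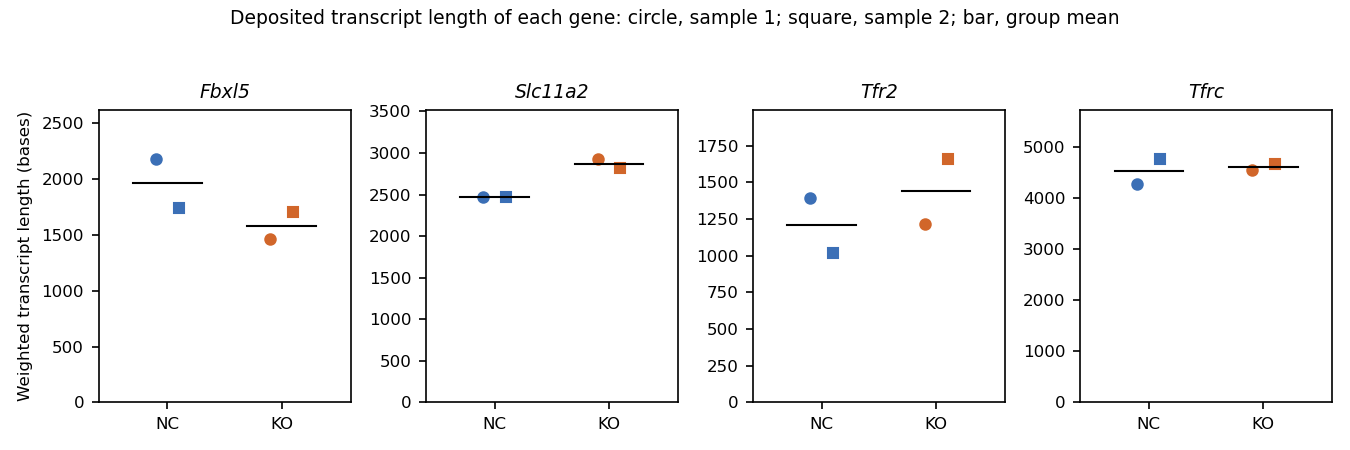
Deposited transcript length, weighted by estimated transcript shares, of Fbxl5, Slc11a2, Tfr2 and Tfrc in each library (bases, linear axis from 0; circles are sample 1, squares sample 2, bars the group means). Fbxl5 is shorter, by a narrow margin between NC 2 and KO 2, and Slc11a2 longer in both KO libraries than in either NC library.

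Per transcript length, the storage genes stood far above the others. Ftl1 was at 2714 to 2931 TPM and Fth1 at 1110 to 1769 TPM, with no overlap. Tfrc came next at 31.0 to 39.3 TPM. Fbxl5 was below Tfrc in NC 1, at 23.5 against 35.9 TPM, and within or above its range in the other libraries, at 32.0 TPM in NC 2 and 44.3 and 41.3 TPM in KO. Slc11a2, at 21.2 to 26.4 TPM, was below Fbxl5 in each library, with ranges that overlapped in NC and not in KO. Slc40a1 followed at 13.7 to 20.4 TPM and Ireb2 at 7.48 to 8.23 TPM. Tfr2, at 0.57 and 2.29 TPM in NC, overlapped Hfe there (1.54 and 1.14 TPM), while in KO Tfr2 was above it, at 4.34 and 4.86 TPM against 1.40 and 1.58 TPM. Hamp was last at 0 to 0.48 TPM. In TPM, Slc40a1 was thus below Tfrc and Slc11a2 in each library, and above Tfr2. The order against Slc11a2 rests on the estimated lengths. In CPM, which is not per length, Slc40a1 was above Slc11a2 in NC 1 (46.5 against 44.6) and KO 2 (55.2 against 52.5). It was below Slc11a2 in NC 2 and KO 1.

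Around the members, 7 lists of iron and heme genes held 88 genes, of which 75 were tested. In all, 15 rose and 16 fell past 0.05, 41.3% against 37.9% of all genes. Of 16 genes of iron entry and reduction, 11 were tested, 4 rose and 2 fell (54.55% called against 37.9% of all genes, in a short list). Hpx, hemopexin, the plasma scavenger of heme, fell from 17.8 ± 1.63 to 3.44 ± 0.47 CPM (SD, n = 2), which is -2.36 on the log2 scale (SE 0.20, adjusted p = 2.06e-10), while Lrp1, its receptor, rose by 0.48 (SE 0.097, adjusted p = 0.000322). Trf, transferrin, the ligand of both transferrin receptors, rose by 0.54 from a mean of 385.7 ± 6.10 CPM to 558.9 ± 6.73 CPM (SE 0.091, adjusted p = 4.31e-05). Its exons overlap Gm20425 on the same strand. The metalloreductase gene Steap4 rose by 2.11 (SE 0.44, adjusted p = 0.000231) from 0.713 ± 0.013 to 3.10 ± 0.85 CPM. Steap4 was counted only 8 and 10 times in NC, against 33 and 50 times in KO. Scara5, Slc22a17 and Cd163 had 0 counts, and Cybrd1 and Hp had at most 8 counts in a library.

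Of the 6 genes of ferritin handling and iron chaperones, 5 were tested, of which 3 fell and 2 did not pass (60.0% called against 37.9% of all genes, in a list too short to read a share from). Bola2 and Glrx3, which form an iron-sulfur chaperone complex, had log2 fold changes of -0.56 (SE 0.11, adjusted p = 0.000130) and -0.48 (SE 0.090, adjusted p = 0.000155). Pcbp1, which delivers iron to ferritin, had -0.32 (SE 0.092, adjusted p = 0.00734), a call lost without NC 1 (-0.30) and without KO 2 (-0.25). Bola2 exons overlap Coro1a and Slx1b, and Pcbp1 exons overlap 1600020E01Rik, each on the other strand. Mitochondrial ferritin, Ftmt, had 0 counts. Among 5 tested genes of the iron-regulatory proteins and other known element-bearing transcripts, 1 rose and 4 did not pass. The share called was below the 37.9% of all genes, again in a list too short to read a share from. The gene that rose was Cdc42bpa (0.59, SE 0.096, adjusted p = 2.50e-05), a kinase gene. The erythroid gene Alas2 had 0 counts.

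In the mitochondrial list of 19 genes for iron import and iron-sulfur assembly, 7 fell and 12 did not pass (median log2 fold change -0.15). That is 36.8% called, against 37.9% of all genes tested called in either direction and 18.2% of all genes tested called lower. Lyrm4, a partner of the cysteine desulfurase, had the lowest p of the list and fell from 23.6 ± 2.996 to 14.3 ± 0.01 CPM, or -0.72 on the log2 scale (SE 0.14, adjusted p = 0.000206). Glrx5, a cluster carrier, had -0.50 (SE 0.11, adjusted p = 0.000817). In the heme list of 20 genes, 6 rose and 2 fell, so that 40.0% were called, close to the 37.9% of all genes. Hmox1, heme oxygenase, which frees iron from heme, rose by 1.13 from a mean of 36.7 ± 0.22 CPM to 80.3 ± 10.9 CPM (SE 0.11, adjusted p = 4.49e-09). The transporter gene Abcg2 rose by 0.95 (SE 0.21, adjusted p = 0.000594), Flvcr1, first described as a heme exporter, had -0.55 (SE 0.11, adjusted p = 0.000311), and Ppox, of heme synthesis, rose by 0.39 (SE 0.11, adjusted p = 0.00763), a call lost without NC 2 (0.19) and without KO 2 (0.28). In these lists the calls for Lrp1, Steap4, Cdc42bpa, Pcbp1, Glrx5, Abcg2, Flvcr1 and Ppox were also lost in the TPM fits. On log2(TPM + 1) and log2(TPM + 0.1), the value of Lrp1 was 0.21 and 0.21, that of Cdc42bpa 0.29 and 0.31, and that of Steap4 0.79 and 1.80. Abcg2 gave 0.76 and 0.93, Ppox 0.28 and 0.29, Pcbp1 -0.26 and -0.26, Glrx5 -0.37 and -0.38 and Flvcr1 -0.41 and -0.44. Exons of Lyrm4 overlap Fars2, those of Flvcr1 overlap A230020J21Rik and those of Ppox overlap B4galt3, each on the other strand. Those of Cdc42bpa overlap Coq8a and Gm38331, also on the other strand.

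**Figure D5:**
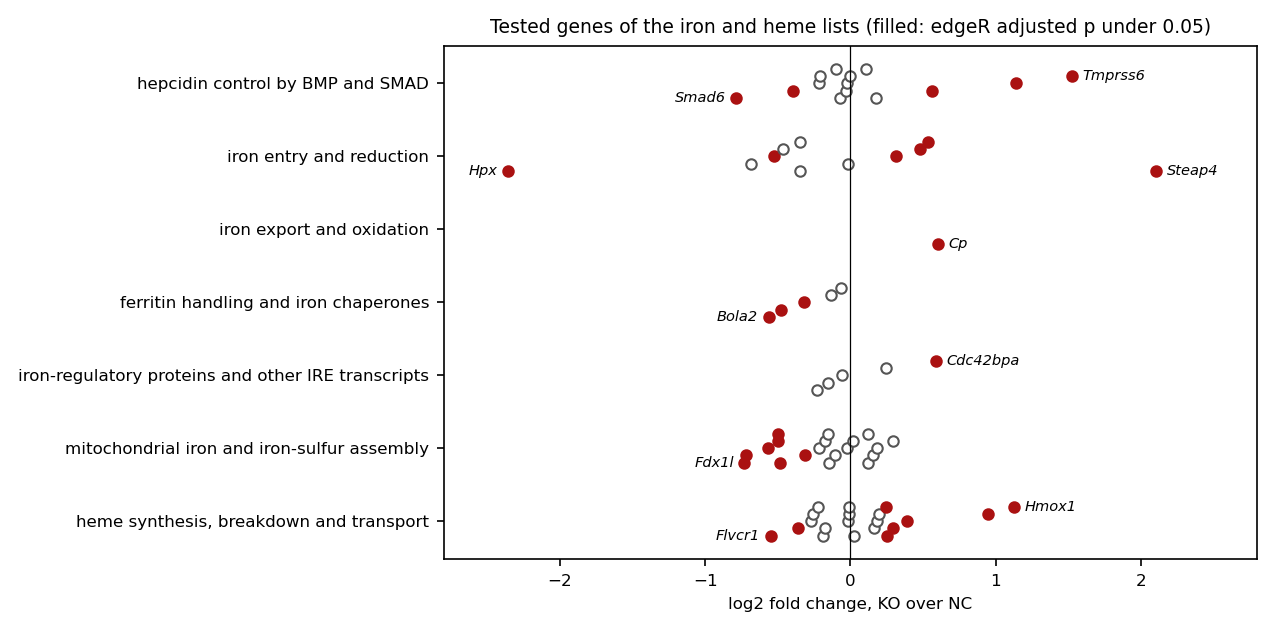
log2 fold change, KO over NC, of the 75 tested genes of the iron and heme lists, 1 point a gene; filled points have an edgeR adjusted p under 0.05 and vertical offsets only separate points. Filled and open points lie on both sides of 0 over the lists as a whole, and Hpx at -2.36 and Steap4 at 2.11 lie furthest out.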

How the data were processed

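The members and lists were chosen with earlier results of these data known. The submitters' processing notes name FastQC, STAR, RSEM and DESeq2 and the builds GRCm38 and mm10; roles, versions and strand setting are not given in the sources used here. Each file holds 1 library. Per the file headers, the authors' columns are RSEM's expected counts (estimated, not normalised), TPM and FPKM (the latter not used) and transcript lengths weighted by estimated shares; the deposited lengths are another kind of value, in bases. RSEM shares reads among similar genes.

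Expected counts were rounded to whole numbers, filtered (filterByExpr, 12510 genes kept), scaled by TMM and tested with edgeR's quasi-likelihood test (edgeR 4.0.16, R 4.3.3), group as the only term, all 4 libraries, two-sided, Benjamini-Hochberg over all genes tested; adjusted p-values in the text are from this fit unless another is named. On simulated counts with 200 changed genes the script was checked. TPM fits used limma 3.58.1 on log2(TPM + pseudocount 1 or 0.1), genes with at least 1 TPM in 2 libraries; other alternatives used DESeq2 1.42.0, other scalings and filters, a replicate block and each library left out, where the lone library of a group is assumed to vary like the other group. Folds on the log2(TPM + pseudocount) scale understate changes of low genes. Named are all members, Acvr2a, Bmpr2, Bmp6, Hfe2, Tmprss6, Aco1, up to 4 genes per list with the lowest p past 0.05, and listed genes under the filter where 5 or fewer. Some genes that this rule picks are not reported here. Bst1 and the named markers were picked after their values were seen. Of the list symbols, 3 were not found under that spelling. Coordinates are GENCODE M21 (GRCm38), 1-based: 54809 of 54838 IDs matched without version. Equal replicate numbers share no stated batch; limits for 0 counts and intervals cover counting error and the spread of these libraries only.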

Additional observations from a re-analysis of the deposited data

How the results depend on the processing

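The count of genes past 0.05 was 4741, and it was 2868 with DESeq2, 1819 on log2(TPM + 1), 1686 on log2(TPM + 0.1) and 0 of 20640 on log2(TPM + 1) without a filter, where limma had 4506 genes at an unadjusted p under 0.05. Of the 1819, 67.7% were higher in KO, against 51.9% in the edgeR fit. The 3 members called became 2 to 5 with a library left out, 1 on log2(TPM + 0.1) and 0 without a TPM filter, and the 31 called genes of the 7 lists became 10, 9 and 0 in the TPM fits, in the same order. With a library left out, Tfrc ranged from 0.081 to 0.26, Slc40a1 from 0.21 to 0.48, Hfe from -0.14 to 0.36 and Fbxl5 from 0.12 to 0.34. On log2(TPM + 1), log2(TPM + 0.1) and log2(TPM + 1) without a filter, in that order, Fth1 gave -0.42, -0.42 and -0.42, Slc40a1 0.41, 0.43 and 0.41, Slc11a2 -0.016, -0.016 and -0.016, and Fbxl5 0.62, 0.64 and 0.62 (the last not past 0.05). Tfr2 gave 1.89 on log2(TPM + 0.1) and 1.30 without a filter, and Slc40a1 gave 0.33 with DESeq2; these no longer passed, and the cause was not tested. The replicate block, with a correlation of deviations between same-numbered libraries of -0.012, gave 5006 genes and changed no call among the members; among the other named genes it changed that of Tmprss6 alone. Bmpr2 ranged from -0.15 to 0.32 with a library left out.
Low counts limit Hamp, Hfe and Tfr2 among the members, and also Steap4 and Tmprss6 in the lists.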
